A study of Mus musculus with 12 samples.

Results

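The NKR-P1 receptors and their Clr ligands are related C-type lectin-like proteins encoded side by side in the natural killer gene complex of the mouse. Of the 37991 genes in the deposited table, 6 were chosen by name: the receptor genes Klrb1a (NKR-P1A), Klrb1b (NKR-P1B), Klrb1c (NKR-P1C, the NK1.1 antigen) and Klrb1f (NKR-P1F), and the ligand genes Clec2d (Clr-b) and Clec2i (Clr-g). All 6 were above 0 in each of the 12 libraries and passed the filter for testing, 1 or more FPKM (fragments per unit of gene length and sequencing depth) in 3 or more libraries. In NK cells with Id2 deleted by the labels (Id2KO), Klrb1b RNA stood at 13.8% of the control level. NK cells with both Id2 and Tcf7 deleted by the labels (DKO), which held more Id2 RNA than Id2KO cells, had 5.08 times the Klrb1b level of Id2KO cells. None of the other 5 genes passed the test in any of 6 comparisons. In DKO cells, Klrb1a and Klrb1f lay below all control libraries and Clec2i above them, where 13.5% of tested genes did not overlap.

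NKR-P1 receptors sit on NK cells, and some of them read Clr proteins on other cells. Klrb1b carries an inhibitory motif in its tail that recruits the phosphatase SHP-1, and it restrains killing of cells that display Clr-b. Most blood cells display Clr-b and lose it when infected or transformed, so its loss is read as a form of missing self. Klrb1a, Klrb1c and Klrb1f are activating receptors, and the best studied of them, Klrb1c, signals through the adaptor FcRγ. Klrb1f binds Clr-g. Id2 is an inhibitor that keeps E proteins off DNA, where they bind E-box motifs, and TCF-1, the product of Tcf7, is a transcription factor of early lymphocytes that binds its own short motif.

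RNA was taken from bone marrow NK cells of C57Bl/6 mice, sorted as positive for NK1.1 and CD49b (the protocol label writes CD9b, read as CD49b). Id2KO cells carried floxed Id2 and Ncr1Cre, in which the Ncr1 gene, encoding the receptor NKp46, drives Cre recombinase. Tcf1KO cells carried Ncr1Cre with floxed Tcf7, and DKO cells Ncr1Cre with both floxed genes. Ctrl cells carried Id2F/F, or Id2F/F and Tcf7F/F, without Cre, so each comparison with Ctrl also holds the presence of Cre, and no control had floxed Tcf7 alone. Each group had 3 libraries. The labels call the samples independent but give neither ages nor whether animals were pooled, so p-values reflect only how these samples differ, which may be technical.

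Library sizes, computed from the steps between FPKM values, lay between 13977524 and 20209587 reads. Id2 averaged 18.03 ± 1.04 FPKM in Id2KO, 114 ± 11.6 in Tcf1KO, 42.3 ± 6.08 in DKO and 152 ± 25.0 in Ctrl (SD, n = 3 each). DKO thus held 2.26 times the Id2 level of Id2KO (ratio of FPKM + 1, adjusted p = 0.0205 by limma with Benjamini-Hochberg adjustment over all tested genes). Tcf7 averaged 34.98 ± 4.65 FPKM in Tcf1KO and 62.4 ± 9.94 in DKO, against 40.9 ± 4.82 in Ctrl, and 84.8 ± 6.34 in Id2KO; a gene total can include reads from exons outside the deleted part, so it does not check the Tcf7 label. All 10 NK cell markers listed, Klrb1c among them, were detected in every group, and their summed level was 1064 to 1535 FPKM in Id2KO, 1605 to 1928 in Tcf1KO, 1478 to 2201 in DKO and 2048 to 2087 in Ctrl. Gzma and Nkg7 reached the highest values in this sum. In Id2KO, Gzma was at 211 to 471 FPKM, against 702 to 807 in Ctrl. Ncr1, Itga2, Tbx21 and Prf1 were also wholly below Ctrl there, while Klrb1c, Klrk1, Klrd1, Nkg7 and Eomes overlapped it. The sum therefore does not count NK cells. In bulk RNA, fewer cells that express a gene and less RNA per cell cannot be told apart.

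The 6 genes lie on chromosome 6 of GRCm38 (mm10). Klrb1a is at chr6:128609227-128623533, Klrb1c at chr6:128778485-128789215 and Klrb1b at chr6:128813706-128826331, all on the minus strand. Clec2i, at chr6:128887588-128898167, Klrb1f, at chr6:129045901-129057464, and Clec2d, at chr6:129180615-129186534, are on the plus strand. Klrb1b and Klrb1c, its nearest relative by position, are 24.5 kb apart. With their relatives, 14 genes of the families fall into a stretch of 666 kb, which begins with Klrb1a and ends with Cd69.

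The promoters of the 4 receptor genes are shown here because Klrb1b departed from its neighbours in the RNA. Each window holds 250 bases before and 50 bases after the annotated start, from RefSeq on GRCm38.p6, read 5′ to 3′ on the gene's strand. They are Klrb1b at chr6:128826266-128826565, Klrb1a at chr6:128622885-128623184, Klrb1c at chr6:128788592-128788891 (all minus strand) and Klrb1f at chr6:129045651-129045950 (plus strand). For Klrb1b the first of 2 windows that RefSeq gives is printed. Capitals mark an E-box (CANNTG, the same on both strands) or a TCF motif (CTTTGA or CTTTGT, on either strand); the motifs share no base with one another in these windows.
Klrb1b: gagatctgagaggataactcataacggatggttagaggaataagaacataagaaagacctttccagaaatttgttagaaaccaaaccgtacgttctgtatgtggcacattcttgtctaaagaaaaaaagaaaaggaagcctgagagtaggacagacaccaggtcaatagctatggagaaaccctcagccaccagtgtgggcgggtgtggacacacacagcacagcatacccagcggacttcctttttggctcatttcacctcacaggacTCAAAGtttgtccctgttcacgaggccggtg
Klrb1a: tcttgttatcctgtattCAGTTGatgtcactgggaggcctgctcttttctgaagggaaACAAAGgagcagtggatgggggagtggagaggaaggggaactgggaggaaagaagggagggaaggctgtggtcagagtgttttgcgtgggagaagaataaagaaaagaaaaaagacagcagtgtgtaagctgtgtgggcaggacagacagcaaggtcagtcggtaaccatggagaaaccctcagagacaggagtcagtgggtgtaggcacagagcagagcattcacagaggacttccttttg
Klrb1c: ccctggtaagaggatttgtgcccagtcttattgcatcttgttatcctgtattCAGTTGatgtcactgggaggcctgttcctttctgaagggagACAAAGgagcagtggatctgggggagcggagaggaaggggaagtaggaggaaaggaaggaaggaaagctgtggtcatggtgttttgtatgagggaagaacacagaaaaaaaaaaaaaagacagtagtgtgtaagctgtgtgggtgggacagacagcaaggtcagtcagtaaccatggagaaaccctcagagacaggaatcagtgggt
Klrb1f: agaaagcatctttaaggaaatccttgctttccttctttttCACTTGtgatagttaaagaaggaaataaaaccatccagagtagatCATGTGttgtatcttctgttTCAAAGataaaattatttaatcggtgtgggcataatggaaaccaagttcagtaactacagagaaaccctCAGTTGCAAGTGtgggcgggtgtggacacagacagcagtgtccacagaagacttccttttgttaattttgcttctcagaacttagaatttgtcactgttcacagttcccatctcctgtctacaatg
The Klrb1b window held no E-box, and 1 TCF motif at bases 20 to 25 after the start. Klrb1a and Klrb1c each held 1 E-box and 1 TCF motif, and their windows were 90.8% identical over 260 aligned bases. Klrb1f held 4 E-boxes and 1 TCF motif. Of the ligand genes, Clec2d had 1 of each, and Clec2i had 1 E-box and no TCF motif. Over all 32851 promoter windows of the same length, 72.3% held an E-box, 31.2% a TCF motif, 23.3% both, and 6.49% held 4 or more E-boxes. A match is a run of letters and not a measured binding site, and a missing match says only that the letters are not in the window. The windows do not cover matching places. Those of Klrb1a and Klrb1c lie wholly within the gene spans given above, while those of Klrb1b and Klrb1f cross the 5′ end of theirs. The motif counts, the missing E-box of Klrb1b among them, thus depend on the start taken for each gene.

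The inhibitory receptor gene Klrb1b had 6.25, 5.07 and 2.58 FPKM in the Id2KO libraries, 27.1, 22.15 and 34.2 in Tcf1KO, 21.7, 27.3 and 21.6 in DKO, and 26.03, 35.6 and 38.7 in Ctrl. Every Id2KO library was below every library of the other 3 groups, and those 3 groups overlapped one another in the order Ctrl, Tcf1KO, DKO by mean. The Id2KO values rest on 179 to 355 reads per library, against 1685 to 2524 in Ctrl. Klrb1b fell in Id2KO against Ctrl by 2.66 ± 0.27 on the log2(FPKM + 1) scale (standard error; adjusted p = 0.00185), with a 95% interval of -3.25 to -2.06. It was the only one of the 6 genes called in that comparison and the only one whose Id2KO and Ctrl libraries did not overlap, where 0.178% of 12384 tested genes were called and 13.9% did not overlap. It was also the only one with an unadjusted p under 0.05, against 9.71% of tested genes.

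In DKO, Klrb1b was higher than in Id2KO by 2.18 ± 0.27 on the log2(FPKM + 1) scale, with an interval of 1.58 to 2.77 and an adjusted p of 0.0121. It was again the only one of the 6 called, where 0.121% of tested genes were, while 4 of the 6 had an unadjusted p under 0.05, against 10.9% of tested genes. Against Ctrl, DKO differed by -0.48 ± 0.27, with an interval of -1.07 to 0.11 (adjusted p = 0.63), and Tcf1KO by -0.26 ± 0.27, with an interval of -0.85 to 0.33 (adjusted p = 0.999). DKO differed from Tcf1KO by -0.22 ± 0.27, with an interval of -0.81 to 0.37 (adjusted p = 0.936). None of these comparisons passed the test, and a p above the threshold does not show that the levels were equal.

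The difference between the Id2 effect with Tcf7 deleted by the labels (DKO minus Tcf1KO) and without (Id2KO minus Ctrl) was tested as an interaction. For Klrb1b it was 2.44 ± 0.38 on the log2 scale, with an interval of 1.6 to 3.27. Its unadjusted p of 5.19e-05 ranked 6 of 12384 genes and its adjusted p was 0.107, above the threshold; over the alternative settings the adjusted p ran between 0.0606 and 0.375. No gene of the whole table was called (0.0%), and Klrb1b was the only one of the 6 with an unadjusted p under 0.05, against 5.94% of tested genes.

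The call of DKO against Id2KO was lost without Id2KO replicate 2 (adjusted p = 0.0703) or without DKO replicate 2 (adjusted p = 0.0662). When only the 2 compared groups were fitted, the adjusted p was 0.0718 for Id2KO against Ctrl and 0.233 for DKO against Id2KO. DKO cells held more Id2 RNA than Id2KO cells, as given above, and the summed level of 10 T cell markers was 954 to 1087 FPKM in DKO, against 346 to 682 in Id2KO. The part of either in the Klrb1b difference was not tested.

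**Figure D1:**
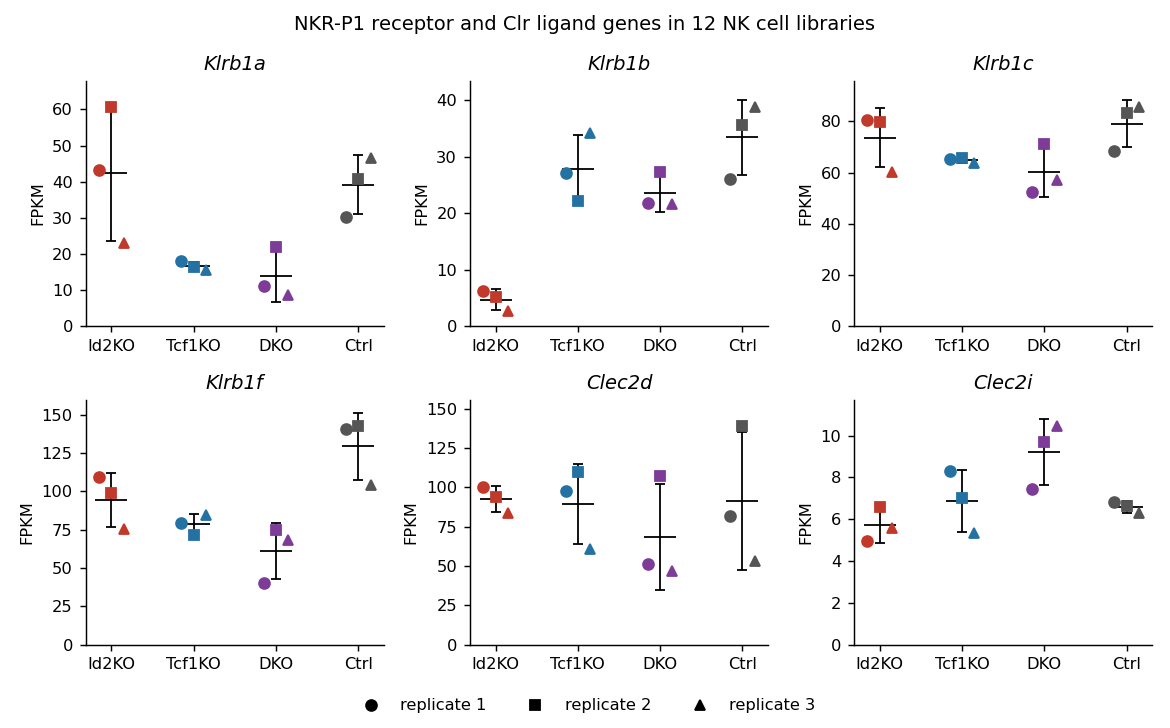
RNA level of each of the 6 genes in FPKM (vertical axes from 0, one scale per gene) in the 12 libraries; points are libraries and horizontal lines are group means with bars of 1 SD (n = 3). Klrb1b in Id2KO lies between 2.58 and 6.25 FPKM, below all libraries of the other groups.

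The activating receptor gene Klrb1a had 43.2, 60.6 and 23.05 FPKM in the Id2KO libraries, 17.95, 16.4 and 15.5 in Tcf1KO, 11.02, 21.9 and 8.47 in DKO, and 30.3, 40.7 and 46.5 in Ctrl. Every Tcf1KO and DKO library was below every Id2KO and Ctrl library, and the Id2KO libraries spanned the Ctrl range. The Tcf1KO libraries lay close together, with an SD of 1.24 FPKM around a mean of 16.6, where the Id2KO libraries had an SD of 18.8 around 42.3. On the log2(FPKM + 1) scale, Tcf1KO differed from Ctrl by -1.17 ± 0.37 (interval -1.98 to -0.36, adjusted p = 0.741). DKO differed from Ctrl by -1.53 ± 0.37 (interval -2.34 to -0.72, adjusted p = 0.165) and from Id2KO by -1.55 ± 0.37 (interval -2.36 to -0.74, adjusted p = 0.166). None of these passed the test, and Id2KO against Ctrl gave 0.02 ± 0.37 with an interval of -0.78 to 0.83 (adjusted p = 0.994).

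Klrb1f, an activating receptor for Clr-g, had 109.0, 98.9 and 75.04 FPKM in the Id2KO libraries, 79.15, 71.5 and 84.5 in Tcf1KO, 40.2, 74.9 and 67.9 in DKO, and 140.8, 142.7 and 104.1 in Ctrl. All Tcf1KO and DKO libraries were below all Ctrl libraries, while 1 of the Id2KO libraries was above the lowest Ctrl library. DKO had 47.2% of the Ctrl mean, a difference of -1.10 ± 0.24 on the log2(FPKM + 1) scale (interval -1.62 to -0.58, adjusted p = 0.123). The difference was -0.70 ± 0.24 for Tcf1KO against Ctrl (adjusted p = 0.801) and -0.45 ± 0.24 for Id2KO against Ctrl (adjusted p = 0.588). DKO also lay below Id2KO in every library, by -0.65 ± 0.24 (adjusted p = 0.342), although 74.9 FPKM in DKO replicate 2 nearly reached 75.04 in Id2KO replicate 3. No comparison of Klrb1f passed the test.

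Klrb1c, whose product is NK1.1, had 80.5, 79.9 and 60.3 FPKM in the Id2KO libraries, 65.4, 65.65 and 63.6 in Tcf1KO, 52.55, 71.3 and 56.9 in DKO, and 68.55, 83.4 and 85.5 in Ctrl. The cells were selected for this protein, so its RNA describes cells already gated on it. The Tcf1KO libraries lay below the lowest Ctrl library, and the other groups overlapped Ctrl. The differences from Ctrl were -0.11 ± 0.16 in Id2KO (adjusted p = 0.888), -0.28 ± 0.16 in Tcf1KO (adjusted p = 0.999) and -0.39 ± 0.16 in DKO (adjusted p = 0.486) on the log2(FPKM + 1) scale, and none passed the test.

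Clec2d, which encodes Clr-b, the ligand of the inhibitory receptor Klrb1b, had 100.2, 93.95 and 83.75 FPKM in the Id2KO libraries, 97.98, 109.6 and 60.6 in Tcf1KO, 50.99, 107.1 and 46.9 in DKO, and 81.7, 139 and 53.3 in Ctrl. The sorted samples held RNA of both receptor and ligand; the part of other cells in the Clec2d level was not tested. All groups overlapped, and the coefficient of variation within a group was 8.98% in Id2KO, 28.6% in Tcf1KO, 49.3% in DKO and 47.9% in Ctrl. The differences from Ctrl were 0.12 ± 0.38 in Id2KO (adjusted p = 0.956), 0.03 ± 0.38 in Tcf1KO (adjusted p = 1) and -0.41 ± 0.38 in DKO (adjusted p = 0.81) on the log2(FPKM + 1) scale. The intervals, -0.72 to 0.96 in Id2KO and -1.25 to 0.43 in DKO, leave room for changes of either sign.

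Clec2i, which encodes Clr-g, had 4.94, 6.59 and 5.57 FPKM in the Id2KO libraries, 8.31, 6.996 and 5.35 in Tcf1KO, 7.46, 9.705 and 10.47 in DKO, and 6.84, 6.62 and 6.29 in Ctrl. The DKO libraries lay above all Id2KO and Ctrl libraries and overlapped Tcf1KO. DKO differed by 0.60 ± 0.19 on the log2(FPKM + 1) scale from Id2KO (interval 0.19 to 1.01, adjusted p = 0.248) and by 0.42 ± 0.19 from Ctrl (interval 0.01 to 0.83, adjusted p = 0.526). Neither passed the test. Id2KO and Tcf1KO differed from Ctrl by -0.19 ± 0.19 (adjusted p = 0.812) and 0.04 ± 0.19 (adjusted p = 0.999).

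**Figure D2:**
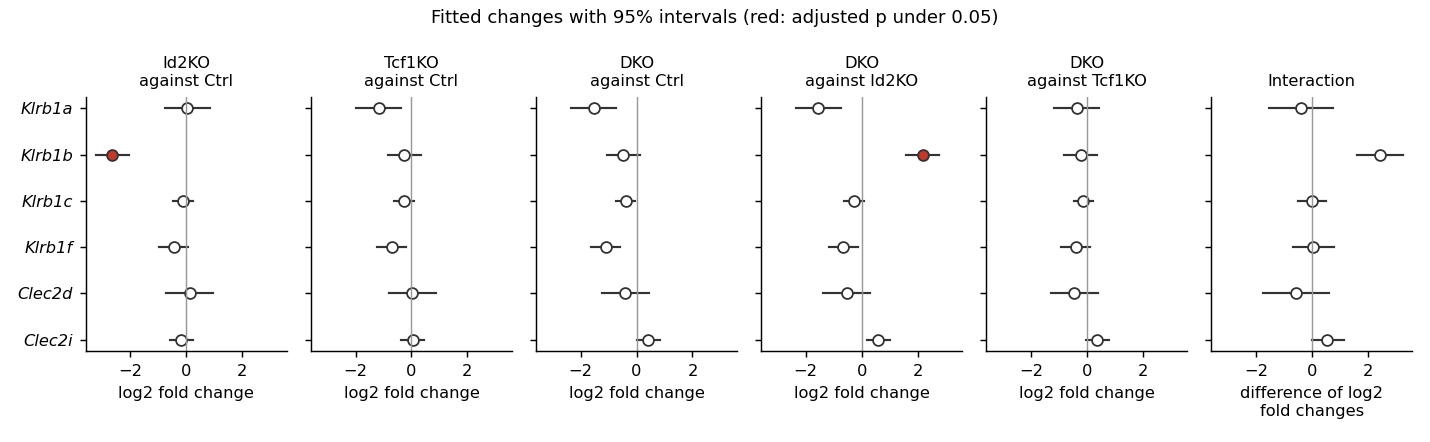
Log2 fold change of each of the 6 genes in 5 comparisons, and the interaction as a difference of fold changes, on the log2(FPKM + 1) scale; points are estimates and bars their 95% intervals from limma. The Klrb1b interval lies between -3.25 and -2.06 in Id2KO against Ctrl and between 1.58 and 2.77 in DKO against Id2KO, and these 2, in red, are the only ones called.

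Counted together, 0 of the 6 genes were called in Tcf1KO against Ctrl, where 0.0% of tested genes were called by limma; 2 of the 6 had an unadjusted p under 0.05, against 4.8% of tested genes. Klrb1a, Klrb1c and Klrb1f, 3 of the 6, did not overlap Ctrl and were all lower, where 10.7% of tested genes did not overlap. In DKO against Ctrl, 0 of the 6 were called, where 0.145% of tested genes were; 4 had an unadjusted p under 0.05, against 9.44%. Klrb1a and Klrb1f were wholly lower than Ctrl and Clec2i wholly higher, 3 of the 6 without overlap, where 13.5% of tested genes did not overlap.

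Between DKO and Id2KO, 4 of the 6 did not overlap, where 14.7% of tested genes did not: Klrb1b and Clec2i were wholly higher in DKO, and Klrb1a and Klrb1f wholly lower. For Klrb1f the ranges nearly touched, at 74.9 FPKM in the highest DKO library and 75.04 in the lowest Id2KO library. In DKO against Tcf1KO, 0 of the 6 were called, where 0.0565% of tested genes were. There 0 had an unadjusted p under 0.05, against 6.73%, and all 6 overlapped, where 12.6% of tested genes did not. Against Ctrl, the 6 genes had a median log2 fold change of -0.15 (Id2KO), -0.27 (Tcf1KO) and -0.44 (DKO), where the median over all tested genes lay at -0.008, -0.002 and -0.009. The 3 comparisons with Ctrl share the same Ctrl libraries. A voom fit of recovered reads called the same number of the 6 genes in each comparison.

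T cell markers summed to more in Tcf1KO and DKO, where Klrb1a and Klrb1f had their lowest means, than in Id2KO or Ctrl. The sum over the 10 listed genes was 793 to 1061 FPKM in Tcf1KO and 954 to 1087 in DKO. It was 346 to 682 in Id2KO and 353 to 417 in Ctrl, and none of the 10 was at 0 in any group. In Id2KO, where Klrb1a spanned the Ctrl range, replicates 2 and 3 lay above every Ctrl library in this sum. Cd3e and Trac reached the highest values in it, and not every gene followed. Cd3d had its highest library in Id2KO, at 61.5 to 103.3 FPKM, against 51.61 to 70.58 in Tcf1KO. Cd4 overlapped between groups, at 1.668 to 3.721 FPKM in DKO and 1.364 to 3.499 in Ctrl. Markers of neutrophils and other myeloid cells summed to 13.1 to 733 FPKM over 9 genes in Id2KO, 1015 to 3432 in Tcf1KO, 160 to 407 in DKO and 698 to 3040 in Ctrl, with Elane at 0 in all Id2KO libraries. Erythroid markers, 8 genes, summed to 85.1 to 1787 FPKM in Id2KO and 665 to 4516 in Ctrl. In Tcf1KO they summed to 1258 to 3227 FPKM and in DKO to 406 to 2552. Basophil and mast cell markers, 6 genes, summed to 14.4 to 89.3 FPKM in Id2KO and 158.5 to 619 in Ctrl. In Tcf1KO these summed to 46.7 to 732 FPKM and in DKO to 51.8 to 563. NK cells themselves express some of the T cell genes, and the part of other cells in the levels of the receptor genes was not tested. Of the genes behind the sort and the Cre, Itga2 (CD49b) averaged 33.65 FPKM in Id2KO, 38.8 in Tcf1KO, 32.5 in DKO and 46.7 in Ctrl, and Ncr1 averaged 123.9 in Id2KO, 64.8 in Tcf1KO, 78.1 in DKO and 191.7 in Ctrl. Neither was called by limma, and the smallest adjusted p, for Ncr1 in DKO against Ctrl, was 0.0567. Both genes lay wholly below Ctrl in Id2KO, Tcf1KO and DKO, where 13.9%, 10.7% and 13.5% of tested genes did not overlap Ctrl. In Tcf1KO against Ctrl, Ncr1 ranked 1 by p among the tested genes (adjusted p = 0.143).

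The 666 kb stretch held genes with very different changes next to one another. In Id2KO against Ctrl, the nearest tested family genes on either side of Klrb1b, Klrb1c and Clec2i, differed by -0.11 and -0.19 on the log2(FPKM + 1) scale, where Klrb1b differed by -2.66. Between DKO and Id2KO, Klrb1b was higher by 2.18 while Klrb1c differed by -0.28 ± 0.16 (adjusted p = 0.563). Of 7 genes outside both families in the stretch, 2 could be tested and 0 were called in any of the 6 comparisons by limma; 1 had an unadjusted p under 0.05 in DKO against Ctrl and in DKO against Id2KO, where 9.44% and 10.9% of tested genes did.

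**Figure D3:**
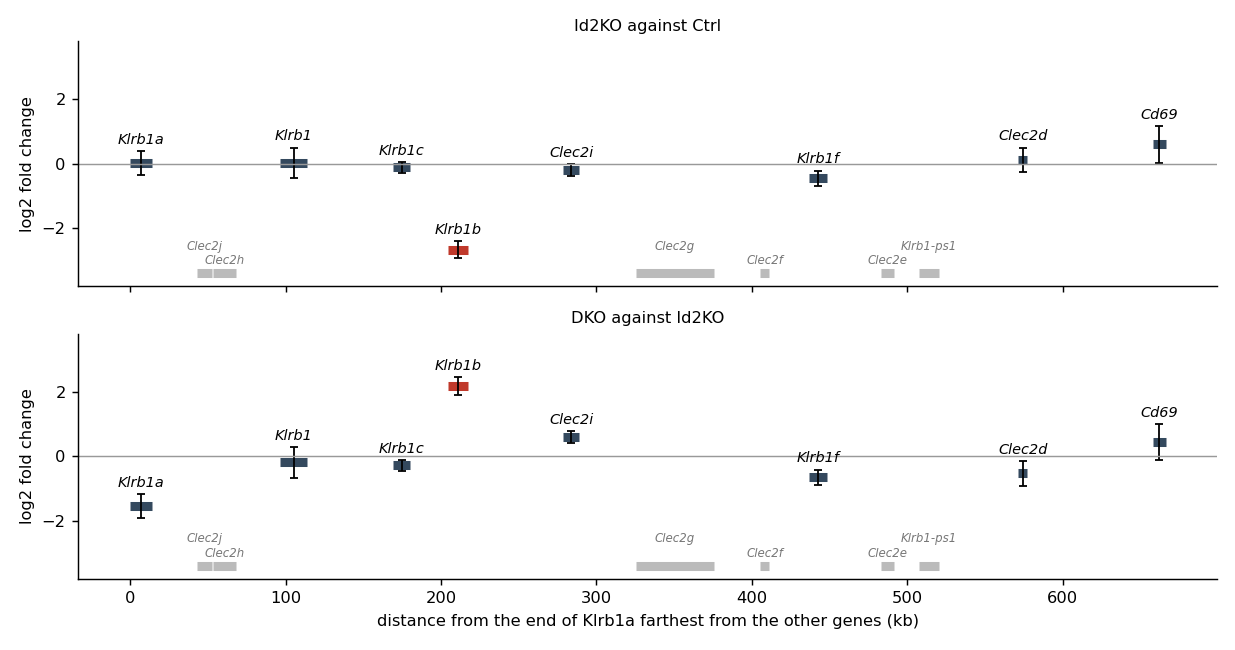
Tested genes of the NKR-P1 and Clr families along the stretch on chromosome 6, by distance in kb from the outer end of Klrb1a (horizontal axis), with their log2 fold change and its standard error (vertical axis) in Id2KO against Ctrl and in DKO against Id2KO. Klrb1b, in red, is at -2.66 and 2.18, and grey bars at the bottom are family genes too low to test.

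Of 9 other genes of the 2 families in the table, Clec2h was at 0 in all libraries and 5, Clec2h included, never reached 1 FPKM. Clec2f reached 1.14 FPKM in Tcf1KO replicate 1 alone, which was 6 reads, and the pseudogene Klrb1-ps1 reached 1.37 FPKM in Tcf1KO replicate 2 alone, 14 reads. Klrb1, named NKR-P1G among its RefSeq synonyms, had 4.45 to 8.18 FPKM in Id2KO, 6.51 to 9.01 in Tcf1KO, 3.73 to 7.95 in DKO and 2.88 to 15.8 in Ctrl, with all groups overlapping and 26 to 165 reads in the Ctrl libraries. It was not called in any comparison. The remaining detected relative, Cd69, is an early activation antigen at the end of the stretch and is described with Clec2d.

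Levels can be compared between genes only per length, and the lengths behind the deposited values were often longer than the gene's exons: the median ratio to the GENCODE M21 exon length was 1.42 over 15245 genes. FPKM were therefore rescaled to that exon length, which changes no comparison within a gene. On this scale Klrb1c was the most abundant receptor in Ctrl, at 225 ± 26.3, followed by Klrb1f at 158 ± 26.7, Klrb1a at 86.9 ± 18.2 and Klrb1b at 59.96 ± 11.9 (SD, n = 3). The ligand Clec2d averaged 91.4 ± 43.8 and Clec2i 17.2 ± 0.722. The annotation release used for the deposited values is not given in the sources used here, so this order depends on the lengths taken.

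On the same scale the 5 expressed receptor genes, Klrb1 included, summed to 429.6 ± 94.5 in Id2KO, 370.6 ± 14.6 in Tcf1KO, 321.2 ± 67.4 in DKO and 533.6 ± 40.6 in Ctrl. The share of Klrb1b in that sum was 1.88% ± 0.467 in Id2KO, 13.4% ± 2.43 in Tcf1KO, 13.3% ± 1.3 in DKO and 11.2% ± 1.6 in Ctrl. Klrb1c made up 49.2% in Id2KO, 49.85% in Tcf1KO, 53.7% in DKO and 42.1% in Ctrl. Klrb1a made up 21.1% ± 5.68 in Id2KO, 9.96% ± 0.877 in Tcf1KO, 9.23% ± 3.05 in DKO and 16.2% ± 2.59 in Ctrl. The share of the inhibitory Klrb1b lay at 1.44% to 2.37% in Id2KO libraries, below all others, and its range in DKO, 12.4% to 14.8%, overlapped that in Ctrl, 9.55% to 12.7%. These shares follow from the levels given above, depend on the lengths taken and were not tested again.

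**Figure D4:**
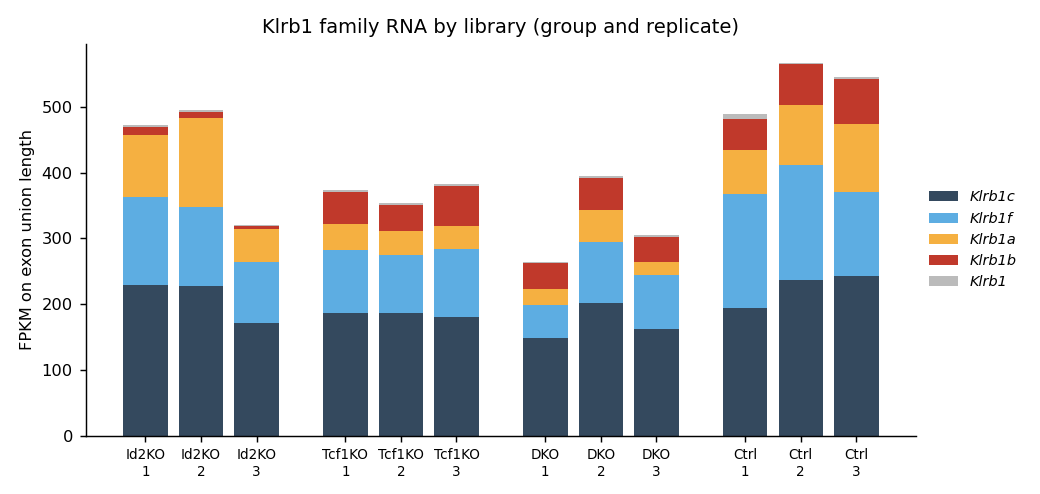
Stacked FPKM of the 5 expressed NKR-P1 genes after rescaling to exon length (vertical axis), 1 bar per library, by group and replicate. Klrb1b, in red, takes 1.44% to 2.37% of a bar in Id2KO and 12.4% to 14.8% in DKO.

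Reads of these paralogs can be shared. Of all windows of 76 bases, the number of sequencing cycles, 24.3% in Klrb1b transcripts also occurred in another annotated gene, but nearly all of those were in Gm44511, a transcript that overlaps Klrb1b and Klrb1c and is not among the genes analysed here; 1.3% occurred in another gene of the table. The share with genes of the table was 3.1% for Klrb1a, 1.7% for Klrb1c, 0.8% for Clec2i and 0.0% for Klrb1f and Clec2d. How reads in shared windows were assigned is not given in the sources used here, and the Klrb1a, Klrb1b and Klrb1c values carry that uncertainty.

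Across the 12 libraries the receptor genes fell into different patterns, described here by Pearson's r of log2(FPKM + 1) without a test, since libraries of a group are shared by all genes. Klrb1a and Klrb1c had an r of 0.91, Klrb1c and Klrb1f of 0.79 and Klrb1a and Klrb1f of 0.74. Klrb1b had an r of -0.27 with Klrb1a, 0.03 with Klrb1c and 0.06 with Klrb1f. The tested genes outside both families most like Klrb1b were Gzma, encoding the granule protease granzyme A (r = 0.93), Itgam, encoding CD11b (r = 0.92), and Card19 (r = 0.92). Itgam is found on mature NK cells and on myeloid cells of mice. It averaged 1.26 FPKM in Id2KO, 8.23 in Tcf1KO, 4.45 in DKO and 9.07 in Ctrl. Myeloid marker sums, given above, also differed between the groups, and their part in the Itgam level was not tested. Gzma averaged 346.1 FPKM in Id2KO, 803.0 in Tcf1KO, 833.2 in DKO and 756.8 in Ctrl.

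The genes most like Klrb1c were Klre1 (r = 0.91) and Klrd1 (r = 0.89), lectin-like receptor genes of NK cells, and the chemokine receptor gene Ccr2 (r = 0.89). For Klrb1a they were Prr5l (r = 0.92), Dnajc9 (r = 0.92) and Ccr2 (r = 0.91), and for Klrb1f Haus4 (r = 0.94), Cops7b (r = 0.91) and Tm6sf1 (r = 0.88). Clec2d was nearest to Tardbp (r = 0.91), Ap1s2 (r = 0.91) and Rtp4 (r = 0.89), and Clec2i to Llgl2 (r = 0.91), Tspan5 (r = 0.90) and Grik5 (r = 0.90). These are the highest of many correlations and describe these libraries.

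Clec2d spanned a wide range within the Tcf1KO, DKO and Ctrl groups, and Cd69 ran opposite to it, a pattern singled out after its values were seen. Cd69 had 59.3, 64.6 and 110.9 FPKM in the Id2KO libraries, 54.1, 41.1 and 91.6 in Tcf1KO, 142.9, 43.1 and 177.2 in DKO, and 61.35, 24.8 and 77.7 in Ctrl. In all 4 groups the order of the libraries by Cd69 was the exact reverse of that by Clec2d, and replicate 3 had the least Clec2d and the most Cd69. Over the 12 libraries r of log2(FPKM + 1) was -0.89. Cd69 was not called in any comparison; DKO averaged 121.1 ± 69.6 FPKM, against 54.6 ± 27.1 in Ctrl, a difference of 1.05 ± 0.56 on the log2(FPKM + 1) scale (adjusted p = 0.605).

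**Figure D5:**
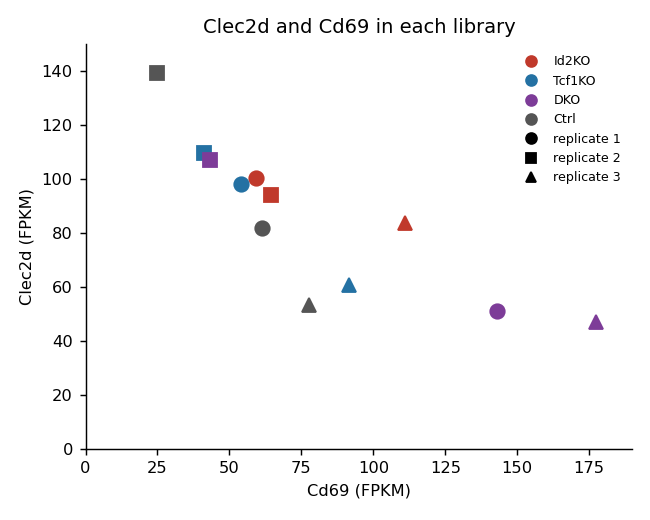
Clec2d (vertical axis) against Cd69 (horizontal axis) in FPKM, on linear axes from 0, 1 point per library; colours are groups and shapes are replicates. In each of the 4 groups the library with the most Clec2d has the least Cd69.

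Adaptors, kinases, phosphatases and other genes of lymphocyte receptor signalling were measured as a list of 15 genes, all tested. The list is general and not confined to NKR-P1 receptors. By limma, 0 of the 15 were called in any of the 6 comparisons, where 0.0% to 0.178% of all tested genes were called. At an unadjusted p under 0.05 against Ctrl there were 2 in Id2KO, 5 in Tcf1KO and 3 in DKO, beside 9.71%, 4.8% and 9.44% of all tested genes. They were 2 between DKO and Id2KO (10.9% of tested genes), 3 between DKO and Tcf1KO (6.73%) and 2 in the interaction (5.94%). Fcer1g, encoding the FcRγ adaptor of Klrb1c, averaged 748.8 ± 54.4 FPKM in Id2KO, 600.7 ± 34.9 in Tcf1KO, 748.6 ± 92.5 in DKO and 823.6 ± 78.4 in Ctrl. The Tcf1KO libraries lay below all Ctrl libraries, by -0.45 ± 0.13 on the log2(FPKM + 1) scale (adjusted p = 0.662). Ptpn6, encoding the phosphatase SHP-1 that the Klrb1b tail recruits, averaged 8.16 ± 0.573 FPKM in Id2KO, 7.93 ± 0.538 in Tcf1KO, 8.47 ± 0.62 in DKO and 9.25 ± 1.51 in Ctrl, with all groups overlapping. Lck, a kinase that acts early in receptor signalling, averaged 33.09 ± 6.26 FPKM in Id2KO, 22.39 ± 1.44 in Tcf1KO, 24.43 ± 3.4 in DKO and 23.97 ± 4.63 in Ctrl. Ptpn11, encoding the related phosphatase SHP-2, averaged 2.838 ± 0.579 FPKM in Id2KO, 3.869 ± 0.674 in Tcf1KO, 3 ± 0.424 in DKO and 4.058 ± 1.36 in Ctrl. For the list, the median log2 fold change against Ctrl was -0.02 (Id2KO), -0.19 (Tcf1KO) and -0.06 (DKO), beside -0.008, -0.002 and -0.009 over all tested genes.

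Other lectin-like receptor genes of the same gene complex or family were listed as 9 genes, all tested. Klrg1, an inhibitory receptor gene of mature NK cells, was the only one called. It averaged 1.86 ± 1.13 FPKM in Id2KO, 35.7 ± 6.78 in Tcf1KO, 4.73 ± 0.311 in DKO and 24.3 ± 5.78 in Ctrl. It fell in Id2KO against Ctrl by 3.20 ± 0.29 on the log2(FPKM + 1) scale (adjusted p = 0.00109) and in DKO against Ctrl by 2.11 ± 0.29 (adjusted p = 0.0298). It also fell in DKO against Tcf1KO, by 2.66 ± 0.29 (adjusted p = 0.0109). Of all tested genes, 0.178% were called in Id2KO against Ctrl, 0.145% in DKO against Ctrl and 0.0565% in DKO against Tcf1KO. In DKO against Id2KO, where Klrb1b rose, Klrg1 differed by 1.09 ± 0.29 and was not called (adjusted p = 0.202); whether the 2 genes differed in this was not tested. Against Ctrl the list had a median log2 fold change of -0.22 (Id2KO), -0.39 (Tcf1KO) and -0.42 (DKO), beside -0.008, -0.002 and -0.009 over all tested genes. At an unadjusted p under 0.05 by limma there were 2 of the 9 in Id2KO, 3 in Tcf1KO and 5 in DKO. The shares of all tested genes were 9.71%, 4.8% and 9.44%. All 9 changes were negative in DKO against Ctrl, as were 51.1% of those of all tested genes. The rank of Klrb1b by p among all genes, 6 in Id2KO against Ctrl, was close to that of Klrg1, 4.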

How the data were processed

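RNA of sorted bone marrow NK cells was sequenced in 12 libraries, prepared with the Nugen Ovation Ultralow kit and read for 76 cycles, per the labels' protocols. The values deposited by the authors are FPKM, 1 per gene and library. Tools listed in the submitters' processing notes are TopHat2 2.1.0, HTSeq 0.6.1, Trimmomatic 0.33 and edgeR (no version), with mm10 as the genome. Whether counting used strand is not given in the sources used here.

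Gene names, positions and exon lengths came from GENCODE M21 on GRCm38. limma 3.58.1 (R 4.3.3) tested the 12384 genes that reached 1 FPKM in 3 or more libraries, on log2(FPKM + 1). A single fit by group to all 12 libraries, with eBayes and its variance trend, gave two-sided tests. P-values were adjusted by Benjamini and Hochberg's method per comparison, with calls at an adjusted p under 0.05. DKO was compared with each single knockout, every knockout with Ctrl, and the Id2 effects with and without Tcf7 deletion as an interaction. Fold changes of low genes are understated by the added 1. With 3 libraries a group, an exact permutation test of a single gene cannot go below 0.10, so limma's pooled spread was used. Ranges overlap where any library of one group lies between those of the other.

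FPKM of all 23707 genes above 0 were whole multiples of the value of 1 read, to within 0.001 reads (0.05 at most for high counts). The reads so recovered made up 99.99% of the implied library sizes and served as depth and for a voom fit. The library size was sought only close to the sum of the recovered reads, so this share does not check the recovery. Promoter sequences are from RefSeq, and all 6 genes matched by symbol. The fit was checked on simulated data. Beside the 6 genes, the relatives above 1 FPKM, the sorting and Cre genes, fixed examples of each list and the 3 most like genes per member were named, Gm and Rik names passed over. The 6 genes, the lists and the tests were chosen with earlier results of these data known. Python 3.11.15 with numpy 2.4.6, pandas 2.3.3 and matplotlib 3.10.9 was used for the rest.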

Additional observations from a re-analysis of the deposited data

How the results depend on the processing

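The fit was repeated without a filter or with one at 5 FPKM, with a pseudocount of 0.5 or 0.1, after quantile normalization or median scaling, with array weights, a robust variance or no trend, with a replicate block, on only the compared groups, at a threshold of 0.01, by voom on recovered reads, leaving out each library and, chosen after seeing the data, without the 3 libraries of lowest array weight (Id2KO replicate 3, DKO replicate 3 and Ctrl replicate 2). Klrb1b stayed lower in Id2KO than in Ctrl, with log2 fold changes between -2.97 and -2.31, and was called in 25 of 26 alternatives; with only the compared groups 0 of the 6 genes were called. In DKO against Id2KO it lay between 1.88 and 2.47 and was called in 21 of 26. There 0 of the 6 genes were called with only the compared groups, at a threshold of 0.01 and without the 3 libraries, and 0 to 1 with a library left out. The fits of the compared groups or without libraries hold fewer libraries, and the threshold of 0.01 leaves the fit and its adjusted p as they were; the cause was not tested further. No other member was called under any of these settings. Over all genes, calls ran from 2 (only the compared groups) to 33 (array weights) beside 22 in Id2KO against Ctrl, from 0 to 31 beside 15 in DKO against Id2KO, from 0 to 27 beside 18 in DKO against Ctrl, from 0 to 15 beside 7 in DKO against Tcf1KO, from 0 to 7 beside 0 in Tcf1KO against Ctrl, and from 0 to 1 beside 0 in the interaction.

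Of 930 values of the 6 genes, 896 kept their direction and side of the threshold, 6 lost their call and 28 changed sign, in 8 of 36 gene and comparison pairs, none of them called and none above 0.41 in size. Against Ctrl in Id2KO, Klrb1a was -0.06 with quantile normalization and -0.28 to 0.40 with a library left out, Klrb1c was 0.07 without the 3 libraries and -0.21 to 0.03 with one left out, and Clec2d was -0.21 to 0.48. In Tcf1KO, leaving one out gave -0.30 to 0.39 for Clec2d and -0.09 to 0.19 for Clec2i; in DKO, Clec2d was 0.16 without the 3 libraries. The interaction of Klrb1c was 0.11 with quantile normalization, 0.00038 with voom and -0.14 to 0.09 with a library left out, and that of Klrb1f -0.01 with array weights, -0.28 without the 3 libraries and -0.12 to 0.32. The cause was not tested. Scalings moved the median of all genes by under 0.1.

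The labels give the replicate numbers no meaning, and not every same-numbered pair deviated together, so the samples were not treated as pairs: over 18 such pairs the correlation of deviations was -0.14 to 0.272 (median 0.03), with 6 over 0.1. As a hint from the data, those 6 were all among Tcf1KO, DKO and Ctrl, and all 9 libraries of these groups correlated best with their own number, which no Id2KO library did. With the replicate block the adjusted p of Klrb1b was 0.0132 in Id2KO against Ctrl and 0.0387 in DKO against Id2KO, and 1, 0, 0, 1, 0 and 0 of the 6 genes were called, as without it. Read numbers were low for Klrb1, with 26 in its lowest library, for Klrg1 in Id2KO (16 to 58), and for Clec2f and Klrb1-ps1; the 6 genes had 179 or more.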
